A study of Bos taurus with 179 samples.

Results

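BTG4 (ENSBTAG00000034346) and CPEB1 (ENSBTAG00000000623) are 2 of the 21218 gene IDs in the bovine oocyte count table. Each was chosen by its name as a regulator of stored maternal mRNA, and each symbol is paired with a single gene ID that stands on 1 line of the table. Symbols could be paired with 2936 of the 14087 genes tested, because the study's tables were used here only in part, and 79.3% of the paired symbols begin with A, B or C. For BTG4 and CPEB1 the pairing comes from the study's list of genes expressed in every size group, a list made on these same oocytes, so that detection of both genes throughout growth is a property of how they were found and not a result. The data are single oocytes of Bos taurus taken from abattoir ovaries, with no treatment, genotype or animal named, so oocytes of one animal may recur within and across groups. The oocytes used measured between 48.0 and 135.0 μm in diameter and fell into 8 size groups of < 60 μm (21 oocytes), 60–69 μm (25), 70–79 μm (23), 80–89 μm (24), 90–99 μm (21), 100–109 μm (18), 110–119 μm (19) and > 120 μm (14). They were sequenced as 2 library replicates, with 97 oocytes read at 150 bp in replicate 1 and 68 oocytes read at 75 bp in replicate 2. The < 60 μm group had 3 oocytes in replicate 1 and 18 in replicate 2, whereas the > 120 μm group had 10 and 4.

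A growing oocyte makes and stores mRNA that is used later, when transcription has stopped, and much of the control over this store works through the poly(A) tail. BTG4 is an adaptor of the BTG/TOB family that brings the CCR4-NOT deadenylase to maternal mRNAs, whose tails are then shortened and which are cleared around meiotic maturation. CPEB1 binds the cytoplasmic polyadenylation element in the 3′ end of stored mRNAs, holds them silent with short tails, and allows their polyadenylation and translation once it is phosphorylated at meiotic resumption. AURKA and CDK1 are kinases known to act on CPEB1, and the cyclin B mRNAs are among the transcripts that it regulates. The libraries were made from mRNA captured by its poly(A) tail, so the amount of a transcript and the length of its own tail cannot be told apart in these counts.

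Levels are given in CPM, the counts of a gene scaled to 1 common library size with TMM factors, which correct for differences in composition between libraries. The total per oocyte ranged from 277126 to 8038061 counts with a median of 1763520. CPM is a share of the captured mRNA and not an amount per oocyte, and it is not divided by transcript length, so levels are compared between oocytes for each gene and not between both genes. No oocyte had 0 counts of either gene. BTG4 had between 430 and 46064 counts per oocyte (median 6739), and CPEB1 between 391 and 41691 counts (median 2348). At these counts, depth per oocyte did not limit detection of either transcript.

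The library replicates differed strongly for CPEB1. Its level in the counts summed per size group was higher in replicate 1 in 8 of 8 groups, on average by 1.18 ± 0.42 on the log2 scale (SD over 8 groups), which is a ratio of 2.26. BTG4 went the other way in 7 of 8 groups, with a mean log2 difference between replicate 1 and replicate 2 of −0.46 ± 0.48 (SD over 8 groups). Read length, library batch and the oocytes themselves cannot be told apart in this difference. Levels are therefore given by replicate, and the replicate was a block in every edgeR fit unless stated otherwise.

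BTG4, the deadenylase adaptor, had its highest group medians at 110–119 μm in both replicates, and its lowest in the smallest oocytes. In oocytes of < 60 μm, the 3 of replicate 1 had 1436, 1525 and 3711 CPM, and the 18 of replicate 2 ranged from 1741 to 5606 CPM (median 2932). At 60–69 μm, BTG4 ranged from 1063 to 5175 CPM (median 2084) in replicate 1 and from 3003 to 6770 CPM (median 3796) in replicate 2. At 70–79 μm, it ranged from 1070 to 8980 CPM (median 3024) in replicate 1 and from 2729 to 6183 CPM (median 3983) in replicate 2. Medians were higher at each of these steps in both replicates, although the ranges overlapped widely between neighbouring groups.

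In the middle sizes the replicates did not move together at every step. At 80–89 μm, BTG4 ranged from 1401 to 6812 CPM (median 2690) in replicate 1 and from 2549 to 5745 CPM (median 4161) in replicate 2. At 90–99 μm, it ranged from 2309 to 6159 CPM (median 3038) in replicate 1 and from 3436 to 9070 CPM (median 5259) in replicate 2. At 100–109 μm, it ranged from 1445 to 4501 CPM (median 2471) in replicate 1 and from 2142 to 5683 CPM (median 4902) in replicate 2. The 100–109 μm group thus had a lower median than the 90–99 μm group in both replicates, within overlapping ranges.

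The 110–119 μm oocytes held the 3 highest BTG4 levels of the oocytes used, all in replicate 1. At 110–119 μm, BTG4 ranged from 4117 to 13548 CPM (median 6773) in replicate 1 and from 2951 to 9698 CPM (median 5928) in replicate 2. At > 120 μm, it ranged from 2490 to 7113 CPM (median 5259) in replicate 1 and from 3757 to 10813 CPM (median 5303) in replicate 2. Both large groups stood above the < 60 μm group by median in either replicate, and the ranges of the smallest and largest oocytes still overlapped.

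**Figure D1:**
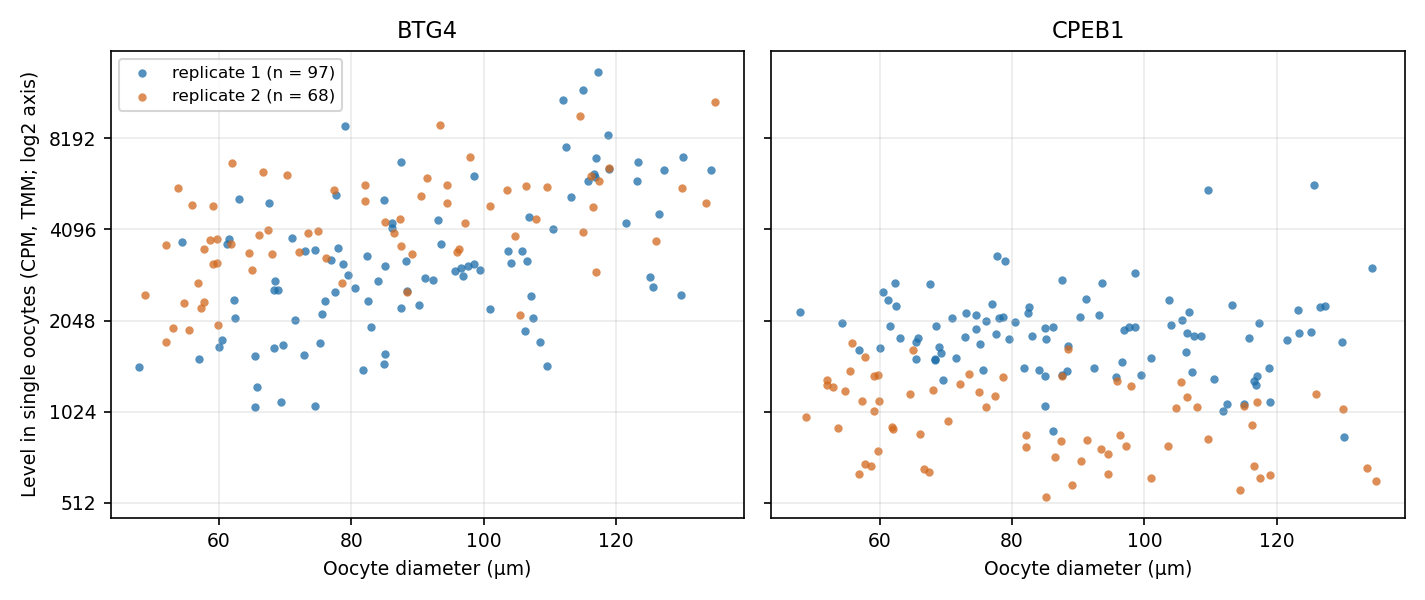
Level of BTG4 (left) and CPEB1 (right) in each oocyte against its diameter in μm, in CPM on a log2 axis, with replicate 1 (97 oocytes) in blue and replicate 2 (68 oocytes) in orange. BTG4 climbs with diameter in both replicates, from a median of 1525 CPM (replicate 1) and 2932 CPM (replicate 2) under 60 μm to 6773 and 5928 CPM at 110–119 μm, whereas CPEB1 forms a band for each replicate and has 2 oocytes of replicate 1 far above the rest, at 5529 and 5743 CPM.

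BTG4 increased with oocyte diameter. In the 16 sums of counts, 1 per size group and replicate, the slope was 0.13 on the log2 scale per 10 μm (SE 0.04, 95% CI 0.04 to 0.21, edgeR quasi-likelihood test, adjusted p = 0.0188). This corresponds to 1.09-fold per 10 μm, and the slope was 0.09 within replicate 1 and 0.14 within replicate 2. A trend is common in these data, since 14.8% of the 14087 genes tested were called upward and 18.1% downward. BTG4 lay at percentile 82.8 of all genes by its signed slope, from the steepest fall to the steepest rise, with a median slope over all genes of −0.02. The call was lost when the replicate block was removed (slope 0.13, adjusted p = 0.0685).

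Across the whole range, BTG4 in > 120 μm oocytes exceeded that in < 60 μm oocytes by 0.95 on the log2 scale (SE 0.34), or 1.94-fold with a 95% CI of 1.18 to 3.16. This comparison did not pass the threshold with the edgeR quasi-likelihood test (adjusted p = 0.0553), in a comparison where 19.2% of genes were called. The difference was 0.55 within replicate 1 and 1.33 within replicate 2. Over all 8 groups, the test of any difference gave F = 3.43 (edgeR, adjusted p = 0.0786), where 14.9% of genes were called.

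The order of the BTG4 group levels, after removal of the replicate means, ran from 110–119 μm at the top, through > 120, 90–99, 70–79, 80–89, 60–69 and 100–109 μm, to < 60 μm at the bottom. The mean of both sums was 6635 CPM in the first and 2616 CPM in the last. Of the neighbours in this order, only 70–79 μm (4155 CPM) and 80–89 μm (3652 CPM) had replicate ranges that did not overlap. All the other neighbouring groups overlapped, and these ranges rest on 2 sums each. Without the 2 deepest oocytes, 100–109 μm moved up to stand between 70–79 and 80–89 μm, and the rest of the order stayed.

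**Figure D2:**
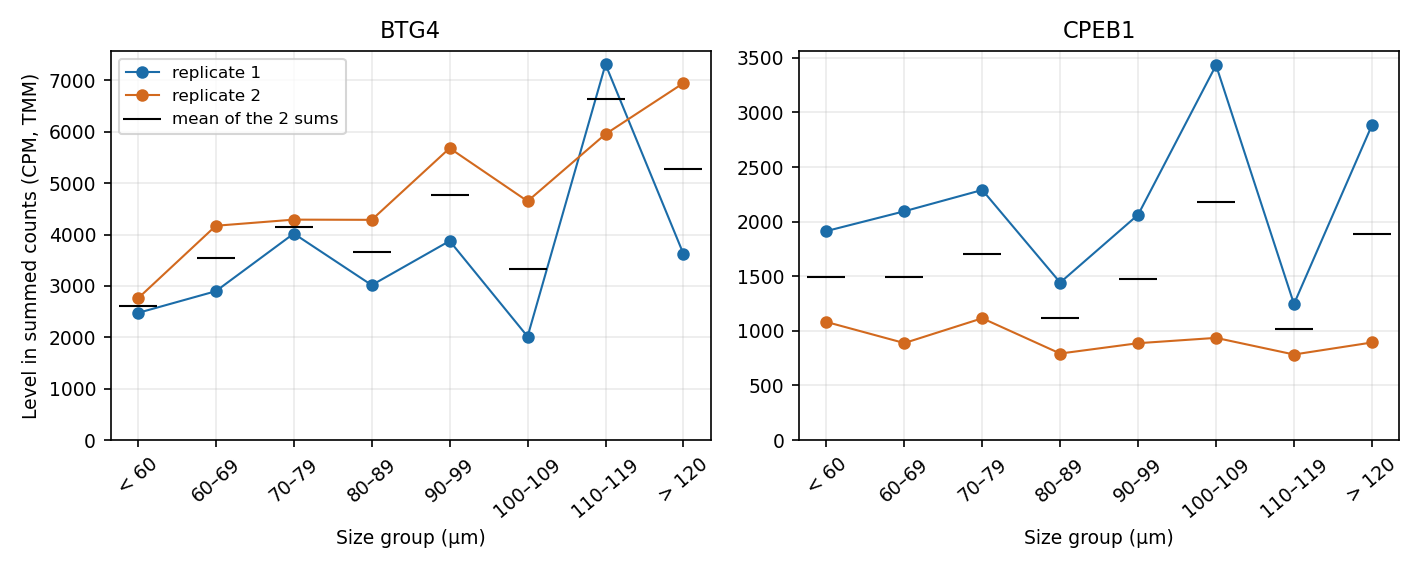
Level of BTG4 (left) and CPEB1 (right) in the counts summed per size group, in CPM, for replicate 1 (blue) and replicate 2 (orange), with the mean of both sums as a black bar. BTG4 falls to 2016 CPM at 100–109 μm and reaches 7313 CPM at 110–119 μm in replicate 1, while CPEB1 stays between 783 and 1115 CPM in replicate 2 and swings from 1246 to 3432 CPM in replicate 1.

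The step between 100–109 and 110–119 μm was the one in which the estimates of both genes were furthest from 0, in opposite directions. For CPEB1 this rank was lost without the 2 deepest oocytes (−0.36, beside −0.39 between 80–99 and 70–79 μm). It was also lost to the step between > 120 and 110–119 μm with single oocytes as units (−0.51 beside 0.56) and with 250000 counts per oocyte (−0.45 beside 0.47). BTG4 was higher in the 110–119 μm sums by 1.11 on the log2 scale (SE 0.34, 2.16-fold, 95% CI 1.31 to 3.54). CPEB1 was lower by a log2 fold change of −0.88 (SE 0.32, 0.544-fold, 95% CI 0.342 to 0.863). Neither passed the threshold with the edgeR quasi-likelihood test, with adjusted p = 0.0636 for BTG4 and 0.0969 for CPEB1, in a comparison where 3.88% of genes were called. The intervals are not adjusted for the number of genes tested.

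The size of this step differed between replicates. For BTG4 the log2 difference was 1.86 within replicate 1 and 0.36 within replicate 2, and for CPEB1 it was −1.46 and −0.26. Among single oocytes of replicate 1, 11 of 12 at 110–119 μm had more BTG4 than every one of the 11 oocytes at 100–109 μm. In replicate 2 this held for 4 of 7 oocytes. For CPEB1, 8 of 12 oocytes of 110–119 μm in replicate 1 and 2 of 7 in replicate 2 fell below every oocyte of 100–109 μm. The groups therefore came close to separating for BTG4 in replicate 1 and overlapped elsewhere.

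A single oocyte shaped the 100–109 μm sum of replicate 1. It measured 109.57 μm, had 7856854 counts, and made up 52.9% of all counts and 74.1% of the CPEB1 counts of that sum. A > 120 μm oocyte of 125.6 μm and 8038061 counts made up 33.1% of all counts and 56.8% of the CPEB1 counts of its sum. These were the deepest libraries of all the oocytes used and also held the highest CPEB1 levels, 5529 and 5743 CPM, whereas their BTG4 levels were 1445 and 2644 CPM. Whether depth, batch or the state of these oocytes went with these values was not tested.

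Without both oocytes, an alternative chosen after seeing these values, the late step of CPEB1 shrank to a log2 fold change of −0.36 (edgeR, adjusted p = 0.383). That of BTG4 was 0.95 (edgeR, adjusted p = 0.0604). CPEB1 in the replicate 1 sums came to 1803 CPM at 100–109 μm, from 3432 CPM, and to 1882 CPM at > 120 μm, from 2882 CPM. The CPEB1 sum of replicate 1 at 110–119 μm, 1297 CPM on the same scaling, still lay below both. What remained of the late swing of CPEB1 did not pass the test in either step. Between > 120 and 110–119 μm the log2 fold change was 0.34 (edgeR, adjusted p = 0.606). The estimate for BTG4 moved by less than its standard error.

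When every oocyte was given the same weight by thinning to 250000 counts, BTG4 passed the threshold in this step (log2 fold change 0.91, edgeR, adjusted p = 0.0431). With all counts, the estimate of 1.11 fell to 0.62 without the 110–119 μm sum of replicate 1 and to 0.75 without the 100–109 μm sum of replicate 1. It rose to 1.57 and 1.63 without those of replicate 2.

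CPEB1, the polyadenylation element binding protein, did not pass the trend test. Its slope in the sums was 0.0057 on the log2 scale per 10 μm (SE 0.04, 95% CI −0.07 to 0.08, edgeR quasi-likelihood test, adjusted p = 0.926). Within replicates the slope was 0.03 and −0.04. The interval leaves room for changes between 0.951-fold and 1.06-fold per 10 μm. Its sign was not stable, since it became −0.03 without the 2 deepest oocytes and −0.01 with 250000 counts per oocyte.

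In replicate 1, CPEB1 medians lay between 1735 and 2066 CPM in 7 of the groups, and the 110–119 μm group had 1303 CPM. At < 60 μm, CPEB1 in the 3 oocytes of replicate 1 was 1633, 2014 and 2193 CPM, and in replicate 2 it ranged from 639 to 1726 CPM (median 1153). At 60–69 μm, it ranged from 1305 to 2731 CPM (median 1789) in replicate 1 and from 646 to 1634 CPM (median 905) in replicate 2. At 70–79 μm, it ranged from 1402 to 3346 CPM (median 2066) in replicate 1 and from 956 to 1361 CPM (median 1188) in replicate 2. The replicates overlapped little within these groups, and neighbouring groups overlapped widely within each replicate.

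The 80–89 μm group held the lowest single value. There CPEB1 ranged from 887 to 2790 CPM (median 1735) in replicate 1 and from 537 to 1645 CPM (median 800) in replicate 2. At 90–99 μm, it ranged from 1337 to 2947 CPM (median 1950) in replicate 1 and from 635 to 1295 CPM (median 789) in replicate 2. At 100–109 μm, it ranged from 1382 to 5529 CPM (median 1864) in replicate 1 and from 620 to 1279 CPM (median 1055) in replicate 2. The median of the 100–109 μm group was not raised in replicate 1, unlike its sum.

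The 110–119 μm group had the lowest CPEB1 median in each replicate. CPEB1 ranged there from 1026 to 2297 CPM (median 1303) in replicate 1 and from 565 to 1100 CPM (median 678) in replicate 2. At > 120 μm, it ranged from 845 to 5743 CPM (median 2048) in replicate 1 and from 607 to 1174 CPM (median 856) in replicate 2. The medians of the largest oocytes lay within the range of the medians of the smaller groups, while their single values in replicate 1 went beyond the smaller groups at both ends.

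Between < 60 and > 120 μm, CPEB1 differed by 0.17 on the log2 scale (SE 0.32, 95% CI −0.49 to 0.83, edgeR, adjusted p = 0.749), with 0.59 within replicate 1 and −0.28 within replicate 2. The sums were highest at 100–109 μm (mean of both sums 2184 CPM) and lowest at 110–119 μm (1015 CPM), with > 120, 70–79, < 60, 60–69, 90–99 and 80–89 μm between them in falling order. Only 90–99 μm (1475 CPM) and 80–89 μm (1117 CPM) were neighbours in this order without overlap of their replicate ranges. Both this order and the next follow the mean log2 level of both sums, with the mean CPM printed beside it. Without the 2 deepest oocytes the order changed, with 70–79 μm (1683 CPM) at the top and 110–119 μm (1053 CPM) still at the bottom. The 100–109 μm group (1384 CPM) was at rank 5 and > 120 μm (1391 CPM) at rank 6, and by mean CPM these 2 would change places. The test of any difference among the 8 groups gave F = 1.74 (edgeR, adjusted p = 0.324).

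The other successive comparisons called neither gene. Between 60–69 and < 60 μm, 0.0142% of genes were called, and the log2 fold change was 0.40 (SE 0.34) for BTG4 and −0.09 (SE 0.31) for CPEB1. Between 70–79 and < 70 μm, 0.135% were called, with 0.47 (SE 0.29) for BTG4 and 0.19 (SE 0.27) for CPEB1. Between 100–109 and 80–99 μm, 0.497% were called, with −0.38 (SE 0.30) for BTG4 and 0.61 (SE 0.27) for CPEB1. Without the 2 deepest oocytes these became −0.17 for BTG4 and 0.13 for CPEB1. At such call rates, the absence of a call says little about either gene.

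Between 80–99 and 70–79 μm, edgeR called 0% of genes, while 780 genes had p under 0.05 before adjustment and DESeq2 called 18. BTG4 differed there by −0.03 (SE 0.29) and CPEB1 by −0.41 (SE 0.27) on the log2 scale. Between 90–99 and 80–89 μm, edgeR also called 0% and DESeq2 0 genes, while 469 had p under 0.05 before adjustment, and the log2 fold changes were 0.38 (SE 0.34) for BTG4 and 0.33 (SE 0.32) for CPEB1. Between > 120 and 110–119 μm, 0.00710% of genes were called, with −0.42 (SE 0.34) for BTG4 and 0.70 (SE 0.32) for CPEB1, which became −0.35 and 0.34 without the 2 deepest oocytes. The adjusted p-values of both genes in these 6 comparisons, by edgeR, lay between 0.273 and 1.

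**Figure D3:**
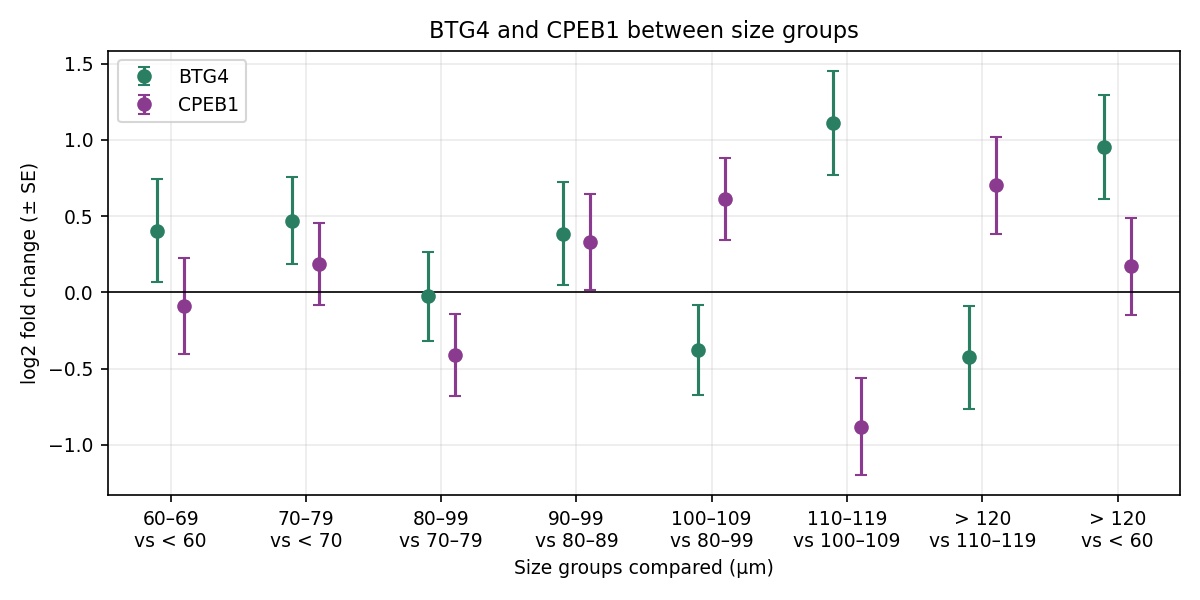
log2 fold change of BTG4 (green) and CPEB1 (purple) in 8 comparisons of size groups in μm, with the standard error of the edgeR fit as bars. BTG4 lies furthest above 0 at 110–119 against 100–109 μm (1.11) and at > 120 against < 60 μm (0.95), and CPEB1 lies furthest below 0 at 110–119 against 100–109 μm (−0.88).

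Over single oocytes, with the mean of each replicate removed, BTG4 correlated with diameter at r = 0.519 over all oocytes used. It was 0.539 within replicate 1 (97 oocytes) and 0.521 within replicate 2 (68 oocytes). For CPEB1, r was −0.189 over all, −0.077 within replicate 1 and −0.340 within replicate 2. These are descriptions without a test, because oocytes share library batches and possibly animals.

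Depth moved with diameter, and with each gene differently in each replicate. Diameter correlated with the logarithm of the total counts at r = −0.217, with −0.121 within replicate 1 and −0.423 within replicate 2. BTG4 correlated with the same total at 0.237, with 0.296 within replicate 1 and 0.056 within replicate 2. For CPEB1 r was 0.052, with 0.152 within replicate 1 and −0.174 within replicate 2. After thinning every oocyte to 250000 counts, r with diameter was 0.555 for BTG4 and −0.173 for CPEB1. Between the genes, r was −0.234 over all oocytes used, −0.105 within replicate 1 and −0.515 within replicate 2.

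The ratio of BTG4 to CPEB1 within the same libraries removes library size and was followed as its log2 value across groups. Its absolute level depends on transcript length and is not interpreted. In replicate 2, the log2 ratio of the sums began at 1.35 in < 60 μm oocytes, passed through 2.23, 1.94, 2.44, 2.68 and 2.31 in order of size, and ended at 2.93 for 110–119 μm and 2.96 for > 120 μm. In replicate 1, it began at 0.37, passed through 0.47, 0.81, 1.06 and 0.91, fell to −0.77 for 100–109 μm, and was 2.55 for 110–119 μm and 0.33 for > 120 μm. Both replicates had steps back, and those of replicate 1 were larger at 100–109 and > 120 μm, the groups of the 2 deepest oocytes.

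With the replicates averaged, the ratio did not pass the test against mean diameter over 8 groups (Pearson's r = 0.494, two-sided exact permutation p = 0.215; Spearman's rho = 0.452, exact permutation p = 0.267). Within replicate 2, r was 0.869 (exact permutation p = 0.00454) and rho 0.905 (exact permutation p = 0.00456), and within replicate 1 r was 0.154 (exact permutation p = 0.752) and rho 0. Without the 2 groups farthest from the median diameter, r was 0.421 (exact permutation p = 0.410, n = 6). This was the only relation of the ratio that was tested, and the values within replicates and without groups are checks of it.

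The ratio depended on how the deepest oocytes were weighted. Without both of them, r was 0.810 (exact permutation p = 0.0119) and rho 0.905. With 250000 counts per oocyte, r was 0.786 (exact permutation p = 0.0163). The log2 ratio of replicate 1 was then, without both oocytes, 0.61 at 100–109 μm and 1.203 at > 120 μm. In the 2 deepest oocytes themselves the log2 ratio was −1.94 and −1.12, the lowest of all the oocytes used.

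**Figure D4:**
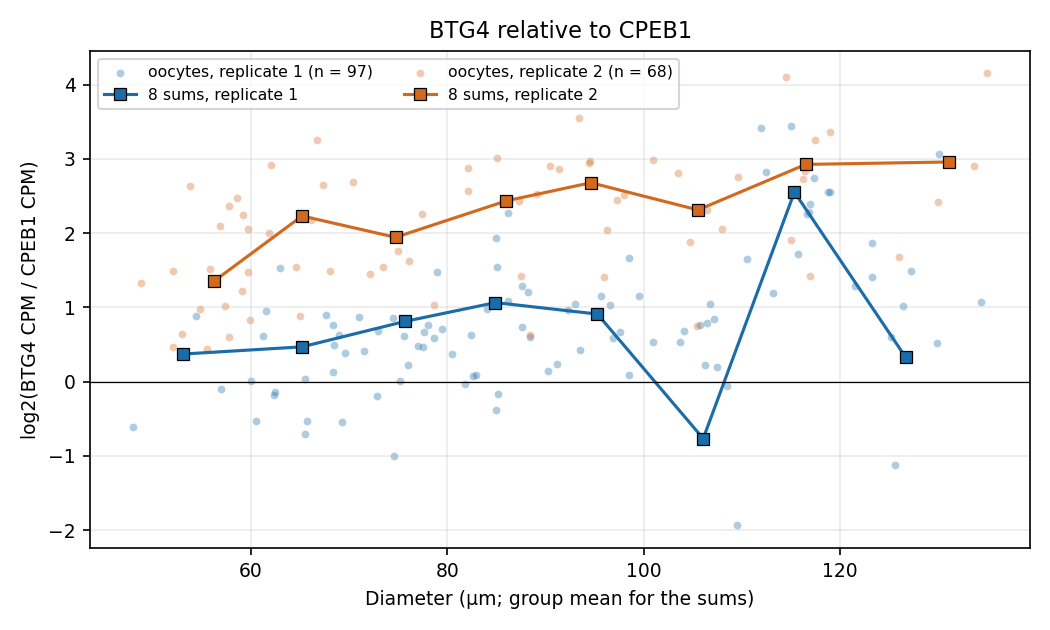
log2 of BTG4 over CPEB1 (both in CPM) against diameter in μm, for single oocytes (pale dots) and for the 8 size group sums of each replicate (squares joined by lines), with replicate 1 in blue and replicate 2 in orange. The replicate 2 sums rise from 1.35 to 2.96, and the replicate 1 sums drop to −0.77 at 100–109 μm, where 1 oocyte gave 52.9% of the counts.

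Of the BTG/TOB family, whose members also act as adaptors of the CCR4-NOT complex and restrain proliferation in somatic cells, 3 of 5 listed members could be paired with an ID and were tested. With diameter, BTG3 fell by 0.21 on the log2 scale per 10 μm (SE 0.04, edgeR, adjusted p = 0.000552), and BTG1 and BTG2 did not pass the test. The slope of BTG1 was 0.10 (SE 0.05, edgeR, adjusted p = 0.113) and that of BTG2 was −0.05 (SE 0.08, edgeR, adjusted p = 0.639). BTG1 passed in 1 of 8 alternatives (slope 0.11), and BTG2 in 1 of the 6 that gave it a value (slope −0.22). The median slope of the 3 was −0.05, beside −0.02 over all 14087 genes tested and 18.1% of genes called downward.

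Of the 35 tested members of all lists, only BTG1 passed the test in the step between 100–109 and 110–119 μm, where 3.88% of all genes were called, so the count is near the background. It was higher at 110–119 than at 100–109 μm by 1.56 on the log2 scale (SE 0.35, edgeR, adjusted p = 0.0339). Its level in the sums was 11.9 CPM in replicate 1 and 17.0 CPM in replicate 2 at 100–109 μm, and 32.2 and 55.8 CPM at 110–119 μm. Both late sums of BTG1 lay above both earlier ones. The call was lost without the replicate block (edgeR, adjusted p = 0.835), with all 179 oocytes (0.164) and in 4 of the 16 fits that left out 1 sum, among them both 100–109 μm sums and the 110–119 μm sum of replicate 1.

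None of the 9 members of the CCR4-NOT deadenylase that could be tested, of 11 listed, passed the trend test with edgeR, where 14.8% of all genes were called upward and 18.1% downward. Their median slope was −0.03. CNOT7, a catalytic subunit, had a slope of 0.01 (SE 0.03, edgeR, adjusted p = 0.794), and its sums ranged from 323.3 to 1303 CPM. The slopes of CNOT8 and CNOT6L, also catalytic subunits, were −0.03 (SE 0.03) and −0.06 (SE 0.04). CNOT4, CNOT2, CNOT6 and CNOT10 had slopes of −0.05, −0.07, −0.07 and 0.05 with adjusted p-values, by edgeR, from 0.100 to 0.219. CNOT10 passed with 250000 counts per oocyte (edgeR, adjusted p = 0.0397) and without the 2 deepest oocytes (0.0342), and CNOT2, CNOT4 and CNOT6 passed with single oocytes as units.

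All 3 other members of the CPEB family were tested, and 1 rose, 1 fell and 1 did not pass, beside 14.8% of all genes called upward and 18.1% downward. CPEB4, known in frog oocytes to take over from CPEB1 late in meiosis, rose with diameter by 0.13 per 10 μm on the log2 scale (SE 0.04, edgeR, adjusted p = 0.0105). CPEB3 fell by 0.09 (SE 0.03, edgeR, adjusted p = 0.0174). CPEB2 had a slope of −0.01 (SE 0.05, edgeR, adjusted p = 0.870). The CPEB3 call was lost in 9 of the 16 fits that left out 1 sum, and without the replicate block both calls were lost (CPEB4 adjusted p = 0.314, CPEB3 0.111, edgeR).

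Of 14 cleavage and polyadenylation factors, part of which work with CPEB1 in the cytoplasm, 8 could be tested, of which 1 rose, 1 fell and 6 did not pass, a share near that of all genes (14.8% upward and 18.1% downward). CPSF4 rose by 0.20 per 10 μm on the log2 scale (SE 0.04, edgeR, adjusted p = 0.000862). Its sums at < 60 μm were 10.6 and 11.3 CPM, and those at > 120 μm 51.4 CPM in replicate 1 and 19.6 CPM in replicate 2. CPSF6 fell by 0.09 (SE 0.03, edgeR, adjusted p = 0.0356), and this call was lost in 14 of the 16 fits that left out 1 sum, without the replicate block (edgeR, adjusted p = 0.123), with RLE normalization (0.0673), with no filter on low counts (0.0955) and with all 179 oocytes (0.0600). CSTF2 had a slope of 0.11 (SE 0.04, edgeR, adjusted p = 0.0533), and it passed in 6 of 8 alternatives and in 10 of the 16 fits that left out 1 sum. CSTF1 had a slope of 0.04 (SE 0.03, edgeR, adjusted p = 0.250). The median slope of the 8 was 0.0016.

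Of 8 kinases and cyclins of meiotic resumption, 5 could be tested, of which 3 rose with diameter and none fell. CCNB2, a B-type cyclin, rose by 0.18 per 10 μm on the log2 scale (SE 0.03, edgeR, adjusted p = 0.000170). CDK1, its partner kinase, rose by 0.14 (SE 0.04, edgeR, adjusted p = 0.0163), and AURKA, the kinase that acts on CPEB1, rose by 0.10 (SE 0.03, edgeR, adjusted p = 0.0179). The sums of CDK1 ranged from 202.8 to 884 CPM and those of AURKA from 1523 to 6936 CPM. Without the replicate block, AURKA and CDK1 lost their calls (adjusted p = 0.320 and 0.160, edgeR). CCNB1 had a slope of 0.05 (SE 0.03, edgeR, adjusted p = 0.169), and it passed in 3 of 8 alternatives, with slopes from 0.069 to 0.086. The median slope of the 5 was 0.10, beside 14.8% of all genes called upward.

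Of 15 other RNA-binding proteins of mRNA storage, 7 could be tested, of which 4 fell and none rose, beside 18.1% of all genes called downward and 14.8% upward. CAPRIN1, a stress granule protein, fell by 0.25 per 10 μm on the log2 scale (SE 0.03, edgeR, adjusted p = 1.1e-05). ATXN2, a regulator of mRNA translation, fell by 0.14 (SE 0.03, edgeR, adjusted p = 0.000459) and CIRBP, the cold-inducible RNA-binding protein, by 0.13 (SE 0.04, edgeR, adjusted p = 0.00915). The CIRBP call was lost without the replicate block (edgeR, adjusted p = 0.248) and in 3 of the 16 fits that left out 1 sum. The median slope of the 7 was −0.13. These 7, like the tested members of every list, are those whose symbol stood in the part of the study's tables that was used here, so that nothing follows about the level of the others.

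**Figure D5:**
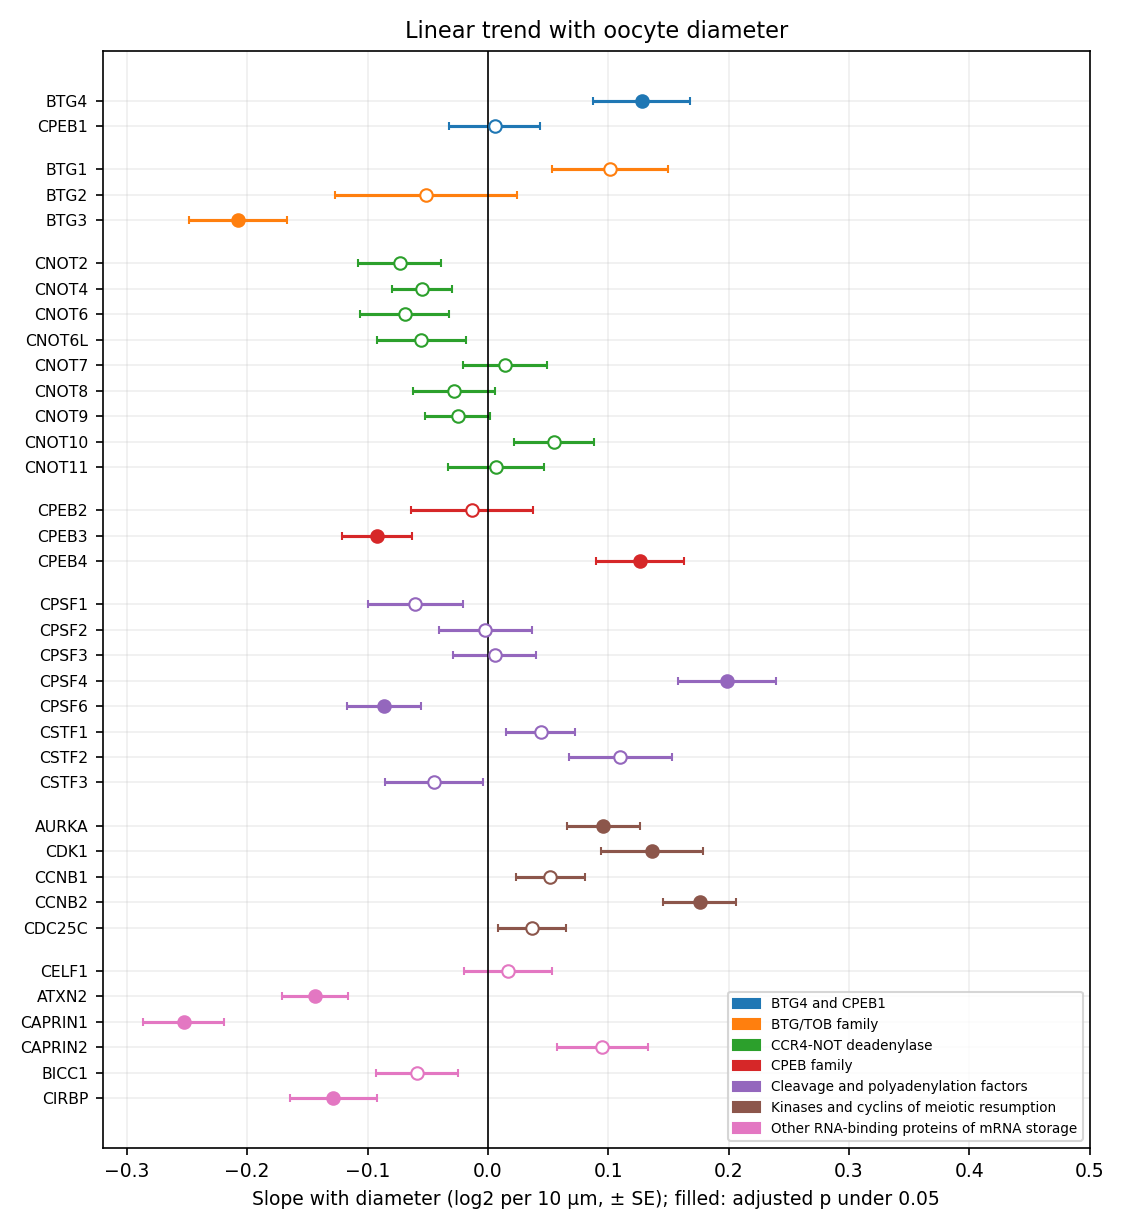
Slope of the linear trend with diameter, in log2 units per 10 μm with its standard error, for BTG4, CPEB1 and 34 of the 35 tested members of 6 gene lists, with filled symbols for an adjusted p under 0.05 by edgeR. BTG4 (0.13), CPEB4 (0.13), CPSF4 (0.20) and 3 of 5 kinases and cyclins lie to the right and are filled, CPEB1 (0.0057) and the 9 CCR4-NOT members are open, and CAPRIN1, ATXN2 and CIRBP lie to the left and are filled.

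The genes whose course was most like that of BTG4 were found among the 2935 tested genes with a symbol, by Pearson's r over the 16 sums with replicate means removed. They were ACTR10 (r = 0.920), CNEP1R1 (0.913), CCDC148 (0.910), ADAM10 (0.908) and CCNB1 (0.887). Over single oocytes these 5 had r between 0.492 and 0.647 with BTG4 and ranked 31 to 155, and another 5 led, C24H18orf32 (r = 0.809), CNIH4 (0.768), CALM2 (0.768), ARL14EP (0.762) and CENPH (0.751). The sums share groups and library batches, and r is a description without a test.

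For CPEB1, the most similar courses were those of CPT1B (r = 0.892), CDK5RAP1 (0.879), CLK2 (0.859), CCT7 (0.854) and BSPRY (0.852). Over single oocytes their r was between 0.427 and 0.636 with ranks from 6 to 98, and CHTF8 (0.716) led. The course of CPEB1 over the 16 sums was itself opposed to that of BTG4, with r = −0.579, which placed CPEB1 at 2614 of 2935 genes by likeness to BTG4. Over single oocytes this r was −0.234 (rank 2342), with −0.105 within replicate 1 and −0.515 within replicate 2. In the 100–109 and > 120 μm sums of replicate 1, a single oocyte gave 74.1% and 56.8% of the CPEB1 counts. Likeness to CPEB1 over the sums includes these 2 sums.

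The oocyte label was checked with BMP15, the oocyte growth factor and the only one of 10 listed oocyte markers that could be paired, which had between 123 and 2910 CPM and was at 0 in no oocyte. Granulosa markers (2 of 8 paired) summed to 0 CPM at the median and 15.8 CPM at most, and were at 0 in 112 oocytes. Theca and stroma markers (6 of 7 paired) summed to between 0 and 54.9 CPM (median 14.5), and endothelial and blood markers (3 of 5 paired) to at most 7.76 CPM. The medians of the theca and stroma sum lay between 6.30 CPM at < 60 μm and 21.1 CPM at 70–79 μm, and its r with BTG4 and CPEB1 over oocytes was 0.118 and 0.098.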

How the data were processed

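Single-oocyte mRNA was captured on oligo-dT beads and amplified (Smart-seq2). The authors trimmed reads (Trim Galore 0.6.6), aligned them with HISAT2 to ARS-UCD1.2 and counted them per gene with SeqMonk; strand and multiple alignments are not given in the sources used here. The deposited values are raw counts, without normalization. Of 179 deposited oocytes, those in the study's quality table were used (97 of replicate 1 and 68 of replicate 2). Lines sharing a gene ID were summed.

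Counts were summed per size group and replicate (16 sums), filtered (filterByExpr, minimum count 10, minimum total 15, 14087 genes) and fitted with edgeR 4.0.16 (TMM, 8 groups, replicate block, quasi-likelihood test, Benjamini-Hochberg, threshold 0.05). Trends used the mean diameter of each sum. Confidence intervals (95%) used the degrees of freedom of the test. Oocyte levels are log2(CPM + 1), or CPM where so given. The replicate numbers pair sums by library batch: differences between replicates correlated between groups at 0.576 to 0.836 over 28 pairs. Nothing says that oocytes came from separate animals, so p-values measure only the spread between these samples.

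The fit was run on sums simulated with a single spread for all genes and no oocyte that dominates a sum. That setting is simpler than these data, so it gives no measure of power for BTG4 or CPEB1. DESeq2 1.42.0, R 4.3.3, Python 3.11.15 and scipy 1.17.1 were also used. The genes, the lists and the tests were chosen with earlier results of these data known. Named genes are BTG4, CPEB1, up to 4 members per list with the smallest adjusted p in the trend, the close partners of both genes, and the 5 most similar genes each. Alternatives were no replicate block, RLE, DESeq2, no filter, single oocytes as units, 250000 counts per oocyte, all 179 oocytes and each sum left out. The values of 1 list member are not reported here, although it is in the counts of its list. Sequences and coordinates are not analysed here.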

Additional observations from a re-analysis of the deposited data

Results flagged for a closer look

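The 14 deposited oocytes outside the analysed set also held both transcripts. BTG4 had more than 3 counts in 12 of them and CPEB1 in 12 of them, and each was at 0 in the other 2. In the 9 of these oocytes with between 113529 and 4933709 counts, BTG4 ranged from 321 to 14120 CPM of the plain total (median 3077) and CPEB1 from 83.6 to 2556 (median 337). Such shares, without TMM factors, are not comparable with the levels of the oocytes used. The study had removed libraries with few reads, few expressed genes or a high share of mitochondrial reads. Which of these rules applied to each oocyte was not examined here. The highest BTG4 value was in a > 120 μm oocyte of replicate 1 that measured 139.09 μm, and the lowest in a < 60 μm oocyte of replicate 2 that measured 39.88 μm. The other 5 oocytes had between 10 and 63163 counts in all, and neither gene had over 140 counts in them. They are given here because these oocytes enter the comparisons only in the alternative with all 179 oocytes, and the counts were set against the 3 counts that a count of 0 allows.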

How the results depend on the processing

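The rise of BTG4 with diameter kept its direction in all 24 alternatives run and its call in all but 1, the fit with no replicate block (slope 0.13 per 10 μm, adjusted p = 0.0685), with slopes between 0.098 and 0.158 when 1 sum was left out. BTG4 at 110–119 against 100–109 μm became called with no filter on low counts (log2 fold change 1.12), DESeq2 (1.16), single oocytes as units (1.11) and 250000 counts per oocyte (0.91), and ranged from 0.62 to 1.63 when 1 sum was left out. It was called without either < 60 μm sum, without the 100–109 μm sum of replicate 2 and without the 110–119 μm sum of replicate 2. BTG4 at > 120 against < 60 μm became called with RLE (0.98), no filter (0.99), DESeq2 (0.98), single oocytes (1.09), 250000 counts (1.12), all 179 oocytes (1.27) and without the 2 deepest oocytes (1.11), and ranged from 0.78 to 1.23 when 1 sum was left out. Any difference of BTG4 among groups became called with no filter (F = 3.68), DESeq2 (4.07, a likelihood ratio per degree of freedom), single oocytes (13.5), 250000 counts (5.48) and without the 2 deepest oocytes (5.19), and F ranged from 2.88 to 6.24 when 1 sum was left out. CPEB1 at 110–119 against 100–109 μm became called with DESeq2 (−0.84) and single oocytes (−0.51) and ranged from −1.20 to −0.42 when 1 sum was left out, with a call without the 100–109 μm sum of replicate 2. With single oocytes, CPEB1 at > 120 against 110–119 μm (0.56) and among all groups (F = 3.83) was called too. Oocytes of one batch or animal are not independent units, so these p-values are too small.

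Several uncalled values near 0 changed sign. BTG4 at 80–99 against 70–79 μm was 0.0076 with no replicate block, 0.0088 with RLE, 0.025 with no filter, 0.0088 with DESeq2, 0.064 with single oocytes and 0.13 with 250000 counts, and ranged from −0.17 to 0.20 when 1 sum was left out. Such ranges were −0.85 to 0.021 for BTG4 at 100–109 against 80–99 μm, −0.90 to 0.030 at > 120 against 110–119 μm, and −0.31 to 0.16 for CPEB1 at 60–69 against < 60 μm, which was 0.075 with all 179 oocytes. CPEB1 at > 120 against < 60 μm was −0.029 with single oocytes and −0.12 without the 2 deepest oocytes, and ranged from −0.13 to 0.56. Its slope was −0.028 with single oocytes, −0.012 with 250000 counts and −0.035 without the 2 deepest oocytes, and ranged from −0.011 to 0.033. Slopes of list members that changed sign were CNOT6L with no replicate block (0.0060), CPEB2 with no replicate block (0.054), 250000 counts (0.010) and all 179 oocytes (0.00072), CNOT8 with single oocytes (0.015) and 250000 counts (0.014), and BTG1 with all 179 oocytes (−0.011). When 1 sum was left out, they ranged from −0.038 to 0.045 for CPEB2, −0.032 to 0.0077 for CNOT8 and −0.065 to 0.0016 for BTG2. The ratio of BTG4 to CPEB1 passed its test, by r and by rho, in replicate 2 alone (r = 0.869). The same held with 250000 counts (0.786) and without the 2 deepest oocytes (0.810). When 1 sum was left out, r ranged from 0.033 to 0.743, with 0.743 without the 100–109 μm sum of replicate 1. Without the > 120 μm sum of replicate 1, r was 0.733 and rho 0.643. The group of a sum left out took its other replicate alone, with the replicate difference not removed. These values therefore mix the weight of a sum with the difference between replicates.

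Counts of genes called moved more. Between 110–119 and 100–109 μm, 547 genes were called, beside 0 with no replicate block, 1317 with no filter, 2038 with DESeq2, 4081 with single oocytes, 837 with 250000 counts and 2 with all 179 oocytes. Leaving out 1 sum moved this count between 0 (without the 100–109 or the 110–119 μm sum of replicate 1) and 1478 (without the 100–109 μm sum of replicate 2), and that between > 120 and < 60 μm from 2700 to between 1093 (without the < 60 μm sum of replicate 1) and 2801. With no replicate block, 2192 genes had a trend in place of 4642, and 81 differed between > 120 and < 60 μm in place of 2700. Over all 179 oocytes, which include libraries with as few as 10 counts, r between BTG4 and CPEB1 was 0.711 in place of −0.234, and that of CPEB1 with diameter 0.108. Causes were not tested. Each group had 2 sums, and BTG4 had at least 430 and CPEB1 at least 391 counts in every oocyte used, so depth did not limit detection of either.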
